A study of Rattus norvegicus with 40 samples.

Results

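The constitutive proteasome subunits are the genes of the 26S proteasome that are present without immune stimulation. They were taken as every row of the deposited table whose platform gene symbol is Psma1 to Psma7, Psmb1 to Psmb4, Psmc1 to Psmc6 or Psmd1 to Psmd14. The table held 29 of these 31 symbols, out of 16587 gene symbols in all. Of the 29 members, 10 of 11 belong to the core particle and 19 of 20 to the cap; Psma3 and Psmd10 were not analysed here. The rule uses names and no measured value, and the interferon-inducible subunits are not members.

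RNA was measured on 40 Affymetrix Rat ST arrays of INS-1E, a rat insulinoma-derived line that makes insulin, labelled INS1. In the cytokine groups (25 arrays), cells were exposed to recombinant human IL-1 at 10 units/ml plus recombinant murine IFN-γ at 100 units/ml, and in the control groups (15 arrays) to neither. Both were sampled at 0, 1, 2, 4, 6, 8, 10, 12, 24, 36, 48, 60 and 72 h. Each cytokine time had 2 arrays except 10 h, which had 1, and each control time had 1 array except 0 h and 1 h, which had 2. The model is 1 tumour-derived line in culture, and no islets or primary beta cells are among the labelled samples, although the extraction protocol speaks of islets. A treatment characteristic names IFN-beta beside IFN-γ, whereas IL-1 with IFN-γ is what the titles, the protocol and the design give.

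The proteasome degrades proteins that carry ubiquitin. Its core particle is a barrel of stacked rings: the outer alpha rings form the gate through which substrates enter, and the inner beta rings hold the protease sites. The cap sits on the alpha ring, where non-ATPase subunits bind and deubiquitinate the substrate and a ring of ATPases unfolds it and feeds it through the gate. Interferon-γ is known to induce replacement catalytic subunits, which make the immunoproteasome used in antigen presentation by MHC class I. The alpha ring is common to the constitutive and the inducible particle, as are the beta subunits without a protease site.

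The alpha ring genes rose with cytokines at 6 to 12 h, and no cap gene passed the test there. All 6 measured alpha genes were called, against 0 of 4 beta ring genes of the list, 0 of 19 cap genes and 9.05% of all genes. At that share, 0 of 4 says little about the beta ring, and 0 of 19 is not far from the share for the cap either. At 24 to 72 h, where 8.73% of all genes were called, 3 alpha genes were still higher and 1 cap gene, Psmc5, was lower. The changes were small beside those of the inducible subunits: the 6 alpha genes rose 1.25-fold (Psma6) to 1.46-fold (Psma7), whereas Psmb9 rose 19.8-fold.

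Promoters are shown for alpha genes that rose (Psma1, Psma2, Psma4), for the cap gene that fell (Psmc5), and for an inducible subunit gene, Psmb10. Each is the 250 bases before the start of the gene in RefSeq, build GRCr8, read 5′ to 3′ on the gene's strand. Capitals mark the interferon-stimulated response element core (GAAA, any 2 bases, then GAAA), a motif found at many interferon-responsive genes. Psma1 lies at chr1:177887858-177888107 (minus strand), Psma2 at chr17:55260442-55260691 (minus), Psma4 at chr8:64236270-64236519 (plus), Psmc5 at chr10:91687303-91687552 (plus) and Psmb10 at chr19:50743293-50743542 (minus).
Psma1: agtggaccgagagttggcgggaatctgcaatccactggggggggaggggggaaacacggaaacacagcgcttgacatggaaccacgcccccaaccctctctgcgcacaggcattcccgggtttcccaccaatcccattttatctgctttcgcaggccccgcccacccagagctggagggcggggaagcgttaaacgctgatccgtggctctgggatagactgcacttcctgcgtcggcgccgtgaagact
Psma2: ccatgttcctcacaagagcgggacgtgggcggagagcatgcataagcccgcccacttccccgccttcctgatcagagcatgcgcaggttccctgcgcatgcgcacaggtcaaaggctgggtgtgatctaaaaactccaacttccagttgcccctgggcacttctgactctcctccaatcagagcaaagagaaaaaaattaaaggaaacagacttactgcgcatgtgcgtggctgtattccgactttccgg
Psma4: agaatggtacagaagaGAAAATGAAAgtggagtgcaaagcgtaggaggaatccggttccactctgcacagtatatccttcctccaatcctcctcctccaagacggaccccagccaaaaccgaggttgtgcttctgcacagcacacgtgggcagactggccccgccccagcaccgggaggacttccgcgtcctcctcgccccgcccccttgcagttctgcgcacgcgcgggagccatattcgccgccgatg
Psmc5: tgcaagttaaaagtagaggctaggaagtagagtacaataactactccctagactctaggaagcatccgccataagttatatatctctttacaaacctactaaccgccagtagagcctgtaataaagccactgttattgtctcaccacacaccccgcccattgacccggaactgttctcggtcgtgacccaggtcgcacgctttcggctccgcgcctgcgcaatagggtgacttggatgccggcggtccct
Psmb10: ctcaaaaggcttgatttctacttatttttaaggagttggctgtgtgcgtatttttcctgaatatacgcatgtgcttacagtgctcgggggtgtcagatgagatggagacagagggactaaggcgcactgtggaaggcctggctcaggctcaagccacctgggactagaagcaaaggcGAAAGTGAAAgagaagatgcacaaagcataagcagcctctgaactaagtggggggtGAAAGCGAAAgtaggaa

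In these letters Psmb10 carries the interferon-stimulated core at 73 and 17 bases before the start. Psma4 carries 1 copy, 234 bases before the start. Psma1, Psma2 and Psmc5 carry none in the window shown. Over windows of 300 bases (250 before to 50 after the start), searched on both strands, 25 of the 29 members had a promoter in the table; Psma7, Psmd6, Psmd12 and Psmd14 did not match. The core was present in 1 of 5 alpha, 1 of 4 beta and 1 of 16 cap promoters and in 2 of 4 promoters of inducible genes, against 3.92% of all 33469 promoters. Among the inducible genes Psmb10 and Psmb8 carried it. Psmb9, the inducible gene that rose most, and Psme1 did not. The beta gene Psmb3 and the cap gene Psmd7, which were not called with cytokines in any window, carried it 143 and 66 bases before the start. The core thus did not separate genes that rose from genes that were not called. The gamma-activated site TTCNNNGAA was present in 0 of 5 alpha, 0 of 4 beta and 3 of 16 cap promoters (8.87% of all promoters).

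The antioxidant response element core TGACNNNGC, a motif bound by the transcription factors that maintain proteasome genes, was in 0 of 5 alpha, 1 of 4 beta and 3 of 16 cap promoters (12.1% of all). The kappa B consensus was in 0 of 5, 1 of 4 and 0 of 16 (4.18% of all). More general promoter letters were common: CCAAT was in 4 of 5 alpha, 3 of 4 beta and 6 of 16 cap promoters (37.5% of all), and the GC box GGGCGG in 5 of 5, 3 of 4 and 9 of 16 (33.1% of all). The antioxidant core and the GC box can overlap, as can the other motifs. A match describes letters only, and its absence says only that they are not in this window.

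Values are log2 signals, so a difference of 1 is a doubling, and differences are cytokine minus control. The deposited values ran from 2.27 to 14.46 and pairwise array correlations from 0.971 to 0.996. All 29 members lay above the median gene, at percentiles from 73.2 (Psmd9) to 99.7 (Psma7) of the mean signal. A bulk array cannot tell fewer cells expressing a gene from less of its RNA per cell. The cytokine exposure was visible in Irf1, the interferon response transcription factor gene, which was higher by 4.24 at 1 to 4 h, 3.82 at 6 to 12 h and 2.64 at 24 to 72 h. Nos2, the other gene chosen as a check, was higher by 1.18, 3.92 and 1.96 in these windows. Its call at 1 to 4 h was kept in 9 alternatives and lost in 11, and its difference was 0.15 without the control array at 4 h. Beta cell markers (6 of 8 measured) averaged 11.28 to 11.74 on cytokine arrays and 11.51 to 11.85 on control arrays. The leukocyte markers (5 of 6 measured) averaged 4.31 to 4.65 on cytokine arrays and 4.32 to 4.71 on control arrays, a low level in both.

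**Figure D1:**
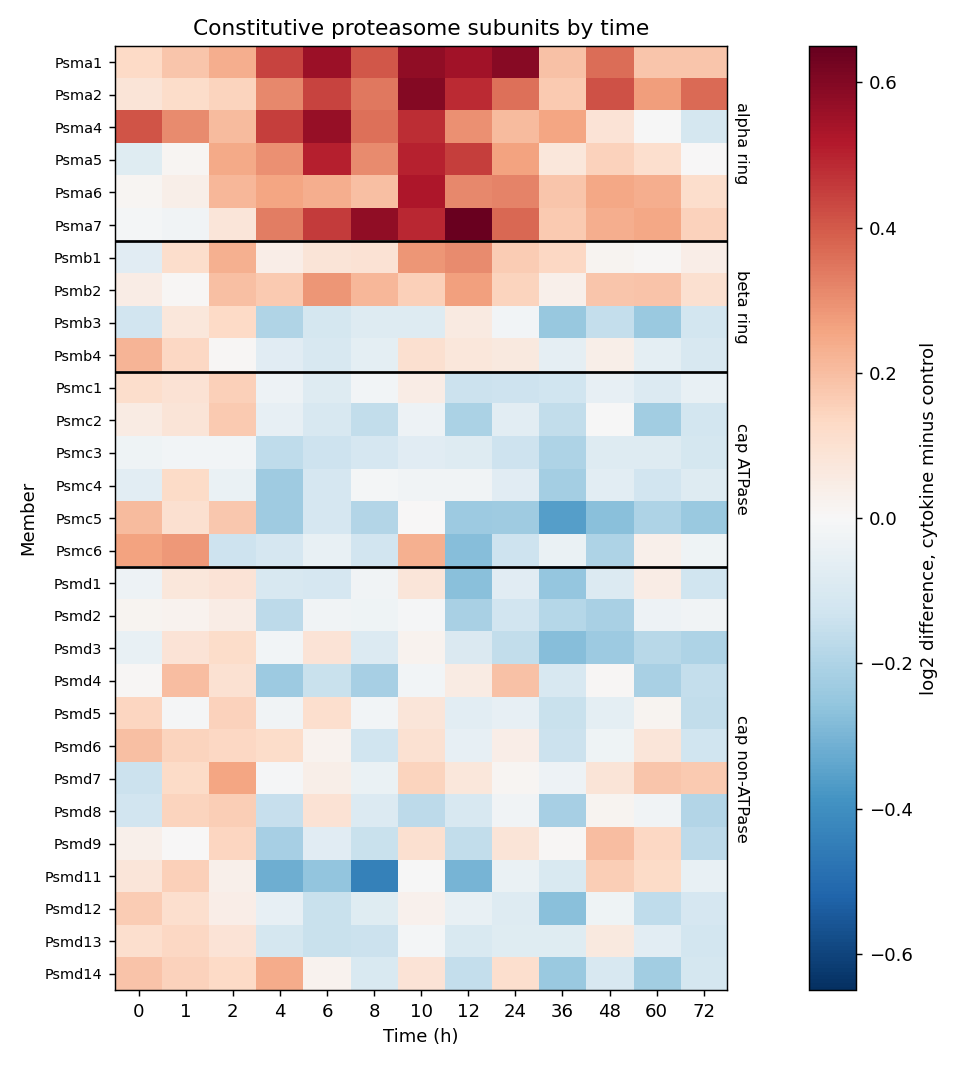
Log2 difference, cytokine minus control, of each of the 29 members (down the page, by role) at each of the 13 times (across). Alpha ring genes are positive from 2 h to 48 h, with medians up to 0.51 at 10 h, while the cap medians lie between -0.16 and 0.12.

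Replicate number and treatment are partly tied: after 1 h every control array is labelled replicate 1, while cytokine arrays carry both numbers. The median cap signal was lower in replicate 2 than in replicate 1 in 12 of the 14 groups with both, by a difference of -0.25 to 0.05, and the core median in 7 of 14. The labels do not tie the numbers to the 2 occasions of the experiment. Results are therefore also given from replicate 1 arrays alone where that matters, and the part of the replicate number in the cap differences was not tested.

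At 0 h and at 1 to 4 h no member passed the test (limma, Benjamini-Hochberg over all 16587 genes, called under 0.05). At 0 h the background was 0% of genes called, and the medians were 0.03 for the core, 0.06 for the cap and 0.00 for all genes. An unadjusted p under 0.05 was found for 1 member, Psma4 (0.41, limma adjusted p = 0.999), and for 3.35% of all genes. Psma4 had signals of 9.85 and 10.04 on cytokine arrays, against 9.17 and 9.91 on control arrays, so the control arrays differed more from each other than the group means did. Without the second control array at 0 h Psma4 differed by 0.78 (limma adjusted p = 0.0255).

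At 1 to 4 h 1.49% of all genes were called (1.44% higher), and 0 of 29 members. Of the members, 3 had an unadjusted p under 0.05 (10.3%), which is near the share of all genes (9.17%). All 10 core genes and 14 of 19 cap genes were positive, against 42.7% of all genes. The median difference was 0.15 for the core, 0.03 for the cap and -0.02 for all genes. Psma1, an alpha ring gene, had cytokine signals of 11.31 (lowest), 11.46 (median) and 11.88 (highest), against control signals of 11.12 and 11.29 (1 h), 11.18 (2 h) and 11.32 (4 h). The groups overlapped at the top of the control range. The difference was 0.28 (SE 0.09, limma adjusted p = 0.174).

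Psma4, also of the alpha ring, had cytokine signals of 9.99, 10.06 and 10.39 (lowest, median, highest), against control signals of 9.68 and 9.79 (1 h), 9.82 (2 h) and 9.90 (4 h). Every cytokine array lay above every control array. The difference was 0.32 (SE 0.11, limma adjusted p = 0.23), and it was called without the 4 arrays at 0 h (adjusted p = 0.0323). Psma2 differed by 0.19 (SE 0.08), with cytokine signals of 10.68, 10.85 and 11.07 against control signals of 10.57 and 10.70 (1 h), 10.68 (2 h) and 10.74 (4 h).

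The early cap genes with the smallest p were regulatory lid genes. Psmd14, the deubiquitinating subunit gene, had cytokine signals of 9.04, 9.28 and 9.45, against control signals of 8.96 and 9.10 (1 h), 9.13 (2 h) and 9.10 (4 h), a difference of 0.17 (SE 0.08) with overlap. Psmd6, a lid gene, had cytokine signals of 9.55, 9.61 and 9.66, against 9.38 and 9.49 (1 h), 9.47 (2 h) and 9.52 (4 h) in controls, a difference of 0.13 (SE 0.07) without overlap. Psmd7, the partner of Psmd14, had cytokine signals of 9.70, 9.79 and 9.90, against 9.65 and 9.66 (1 h), 9.59 (2 h) and 9.78 (4 h) in controls, a difference of 0.12 (SE 0.09). None of these 3 was called (adjusted p between 0.548 and 0.743). Across members the 95% intervals of the early differences ran from -0.18 to 0.55 in the core and from -0.26 to 0.35 in the cap. Of all genes, 1.13% had every cytokine array above and 0.5% every one below the controls; the members with cytokine above were Psma4 and Psmd6.

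**Figure D2:**
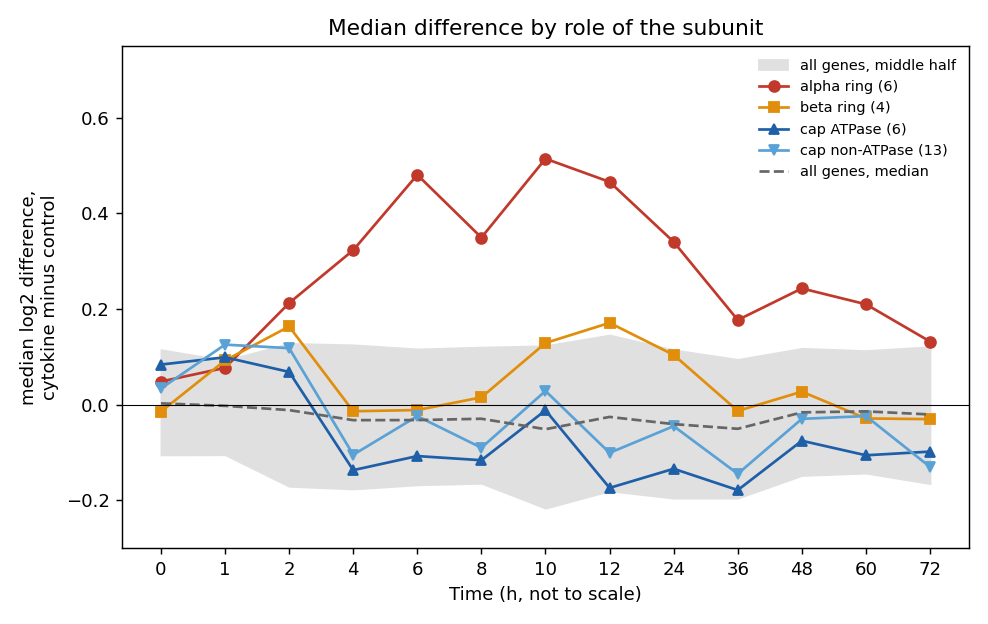
Median log2 difference by role (alpha ring, beta ring, cap ATPases and other cap genes) against time in hours, with a band from the lower to the upper quartile of all genes. The alpha ring median was 0.32 (4 h), 0.48 (6 h), 0.47 (12 h) and 0.13 (72 h), and the all-gene median stayed between -0.05 and 0.00.

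At 6 to 12 h 9.05% of all genes were called (4.94% higher, 4.11% lower), and 6 of the 29 members, all of the alpha ring and all higher. The alpha ring median was 0.45 (range 0.32 to 0.54), and every one of its 6 genes had all 7 cytokine arrays above all 4 control arrays; 4.94% of all genes did. Psma7, the brightest member, had cytokine signals of 12.29, 12.49 and 12.55 (lowest, median, highest), against control signals of 11.94 (6 h), 11.97 (8 h), 11.95 (10 h) and 11.83 (12 h). The lowest cytokine array stood clear of the highest control array. Psma7 averaged 12.47 ± 0.09 (SD, n = 7) in cytokine cells and 11.92 ± 0.06 (n = 4) in control cells, and rose by 0.54 (SE 0.07, limma adjusted p = 1.13e-05).

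Psma2 had cytokine signals of 11.09, 11.19 and 11.26, against control signals of 10.65, 10.84, 10.67 and 10.75 at 6, 8, 10 and 12 h. It rose by 0.47 (SE 0.07, limma adjusted p = 0.000172), or 1.38-fold. Psma1 had cytokine signals of 11.63, 11.82 and 11.87, against control signals of 11.20, 11.39, 11.25 and 11.22. It rose by 0.52 (SE 0.09, limma adjusted p = 0.000245), or 1.43-fold. In both genes the control array at 8 h was the highest of its group and still below every cytokine array.

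Psma5 (9.74, 9.93 and 9.99 in cytokine cells, against 9.43, 9.53, 9.49 and 9.42 in controls) rose by 0.44 (SE 0.09, adjusted p = 0.00178). Psma4 (10.24, 10.28 and 10.43 in cytokine cells, against 9.77, 9.93, 9.94 and 9.95 in controls) rose by 0.43 (SE 0.10, adjusted p = 0.00919). Psma6 (10.27, 10.41 and 10.60 in cytokine cells, against 10.11, 10.19, 10.07 and 10.08 in controls) rose by 0.32 (SE 0.10, adjusted p = 0.0448), and its call was lost in 10 of 21 alternatives, with adjusted p of 0.212 without the control or the cytokine array at 10 h. Psma4 was not called without the control array at 6 h (adjusted p = 0.0651). From replicate 1 arrays alone all 6 alpha genes were positive, with a median of 0.47. In the same window 2 of 6 beta cell markers were called lower, Nkx6-1 (-0.44) and Slc2a2 (-0.29), as was 1 of 3 other islet hormone genes, Gcg (-0.69). Their part in the alpha ring differences was not tested.

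**Figure D3:**
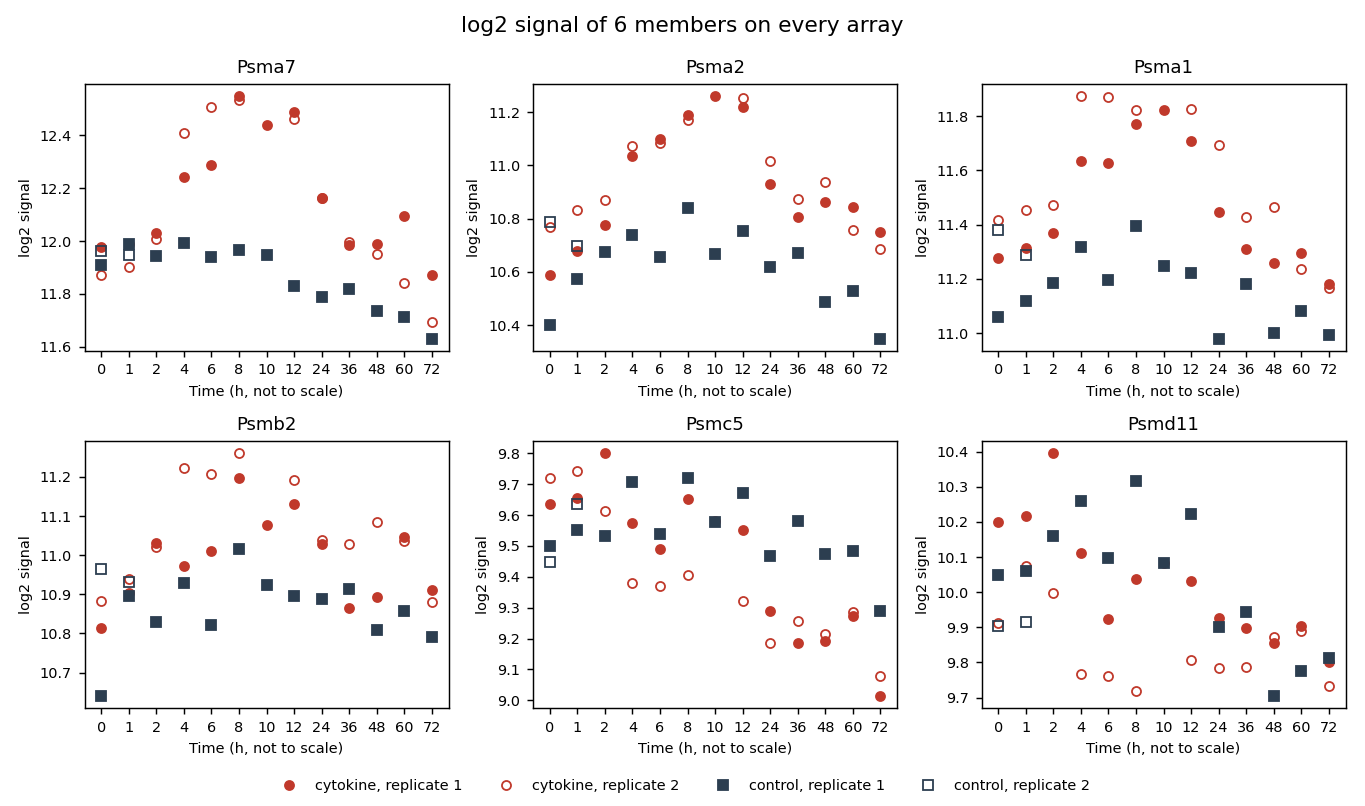
Log2 signal of every array (points) by time in hours for Psma7, Psma2, Psma1, Psmb2, Psmc5 and Psmd11, cytokine and control. At 6 to 12 h the cytokine arrays of the 3 alpha genes lie above the controls, for example 12.29 to 12.55 in cytokine cells against 11.83 to 11.97 in controls for Psma7.

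The beta ring genes of the list, which carry no protease site, were not called. An unadjusted p under 0.05 was found for 2 of 4, against 19.6% of all genes. Psmb2 had cytokine signals of 11.01, 11.19 and 11.26, against control signals of 10.82, 11.01, 10.92 and 10.89 at 6, 8, 10 and 12 h. The groups met at 11.01, and the difference was 0.23 (SE 0.08, limma adjusted p = 0.0663). Psmb1 had cytokine signals of 10.20, 10.36 and 10.49, against 10.14, 10.28, 10.15 and 10.07 in controls, a difference of 0.19 (SE 0.07, adjusted p = 0.0905). Psmb3 differed by -0.06 and Psmb4 by 0.00. Their median was 0.10, with 3 of 4 positive, against 40.1% of all genes. Some alternatives called 1 of them: Psmb1 with the replicate block (limma adjusted p = 0.0379) and with quantile normalization (0.0495), and Psmb2 without the dimmest genes (0.0427) and with trend and robust moderation (0.0323). The 4 uncalled core genes had 95% intervals between -0.23 and 0.39.

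No cap gene passed at 6 to 12 h, with 1 of 19 at an unadjusted p under 0.05 (5.26%, against 19.6% of all genes). All 6 ATPase genes were below 0 (median -0.08) and 2 of 13 other cap genes were above it (median -0.07). Of all genes 59.9% were below 0, with a median of -0.03. Psmd11, a scaffold subunit gene of the lid, had cytokine signals of 9.72, 9.92 and 10.08, against control signals of 10.10, 10.32, 10.08 and 10.22. Every cytokine array lay below every control array, although the highest cytokine and the lowest control array both round to 10.08, as did 4.38% of all genes. The difference was -0.25 (SE 0.10, limma adjusted p = 0.133).

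The ATPase genes Psmc5 (9.32, 9.49 and 9.65 in cytokine cells, against 9.54, 9.72, 9.58 and 9.67 in controls) and Psmc2 (10.54, 10.72 and 10.75 in cytokine cells, against 10.76, 10.81, 10.75 and 10.84 in controls) each differed by -0.13. Their adjusted p were 0.34 and 0.433. The cap 95% intervals ran from -0.45 to 0.23, so a rise of the size seen in Psma7 lay outside all of them. From replicate 1 arrays alone 6 of 19 cap genes were positive, with a median of -0.02.

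**Figure D4:**
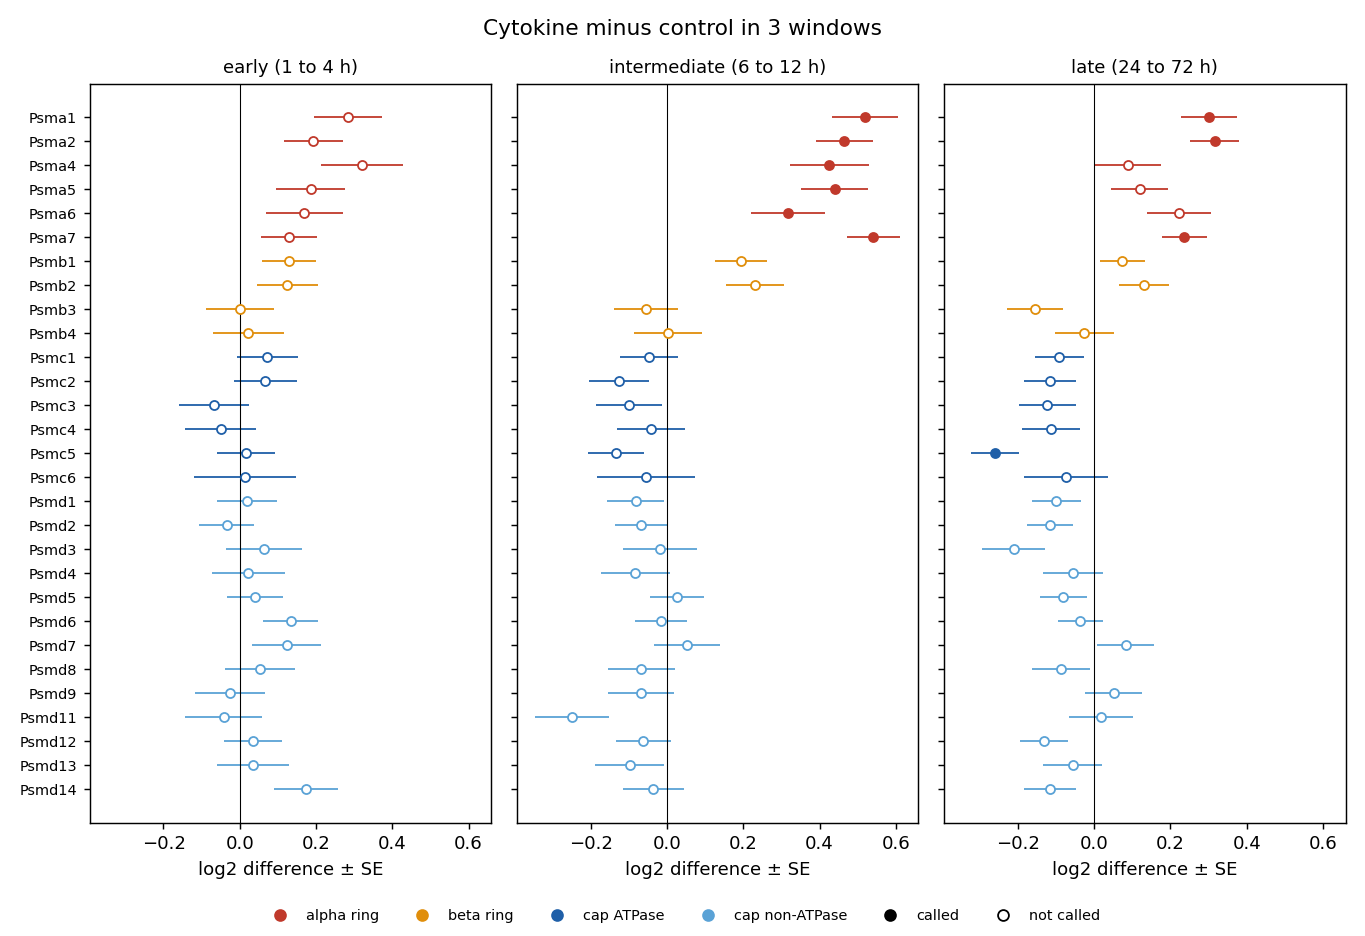
Log2 difference ± SE of each member in 3 panels: 1 to 4 h, 6 to 12 h and 24 to 72 h. Filled points passed the test: 0 at 1 to 4 h, 6 alpha genes at 6 to 12 h, and 3 alpha genes and Psmc5 at 24 to 72 h.

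At 24 to 72 h 8.73% of all genes were called (4.51% higher, 4.22% lower), and 4 of 29 members. Psma2 had cytokine signals of 10.69, 10.85 and 11.02, against control signals of 10.62 (24 h), 10.67 (36 h), 10.49 (48 h), 10.53 (60 h) and 10.35 (72 h). Every cytokine array lay above every control array, as in 2.91% of all genes, and Psma2 was the only member to show this. It was higher than control by 0.32 (SE 0.06, limma adjusted p = 0.00239), or 1.24-fold.

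Psma1 had cytokine signals of 11.17, 11.30 and 11.69, against 10.98, 11.18, 11.00, 11.08 and 10.99 in controls, and was higher by 0.30 (SE 0.07, adjusted p = 0.0111). Psma7 had cytokine signals of 11.69, 11.99 and 12.16, against 11.79, 11.82, 11.74, 11.71 and 11.63 in controls, and was higher by 0.24 (SE 0.06, adjusted p = 0.0146). In both genes the groups overlapped, and both calls were lost without the control array at 24 h (limma adjusted p = 0.125 and 0.0881), as was that of Psma1 with replicate 1 arrays only (0.0728). Psma6 differed by 0.22, Psma5 by 0.12 and Psma4 by 0.09, none called. Psma6 was called with the replicate block (0.29, limma adjusted p = 0.0174) and with replicate 1 arrays only (0.35, limma adjusted p = 0.0138). The alpha median was 0.23, with 6 of 6 positive, against 39.1% of all genes. In the same window 4 of 6 measured beta cell markers were called lower (median -0.31), 1 of 2 duct markers was called higher (Krt7, 0.45) and 1 of 3 other islet hormone genes lower (Gcg, -2.80). Of the leukocyte, fibroblast, endothelial and acinar markers (5, 4, 2 and 3 measured) limma called 0. An unadjusted p under 0.05 was found for 1 leukocyte and 1 fibroblast marker, and for 20.4% of all genes. The part of these shifts in the members' differences was not tested.

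Psmc5, an ATPase of the cap's base, had cytokine signals of 9.01, 9.20 and 9.29, against control signals of 9.47 (24 h), 9.58 (36 h), 9.47 (48 h), 9.48 (60 h) and 9.29 (72 h). The ranges met at 9.29 (2.17% of all genes had every cytokine array below the controls), where the control array at 72 h was the lowest of its group. Psmc5 fell by 0.26 (SE 0.06, limma adjusted p = 0.00995); without the control array at 36 h its adjusted p was 0.0512. All 6 ATPase genes were below 0, and 3 of 19 cap genes were above it, with a cap median of -0.09. Of all genes 60.9% were below 0 and 39.1% above it, with a median of -0.04.

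The next cap genes by p were lid genes that did not pass. Psmd3 had cytokine signals of 9.63, 9.74 and 10.00, against 10.04, 10.08, 10.02, 9.93 and 9.87 in controls, a difference of -0.21 (SE 0.08, adjusted p = 0.133). Psmd12 had cytokine signals of 10.26, 10.37 and 10.46, against 10.48, 10.69, 10.42, 10.53 and 10.41 in controls, a difference of -0.13 (SE 0.06, adjusted p = 0.238). The members nearest 0 were Psmb4 in the core, at -0.03 (11.28, 11.49 and 11.59 in cytokine cells, against 11.48, 11.54, 11.49, 11.51 and 11.44 in controls), and Psmd11 in the cap, at 0.02 (9.73, 9.86 and 9.93 in cytokine cells, against 9.90, 9.94, 9.70, 9.77 and 9.81 in controls). Uncalled cap genes had 95% intervals from -0.38 to 0.24 and uncalled core genes from -0.31 to 0.40.

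Whether the response differed between windows was tested directly. From 1 to 4 h to 6 to 12 h 1 of 29 members was called, Psma7, whose difference grew by 0.41 (SE 0.10, limma adjusted p = 0.0478), with 1.24% of all genes called (1.07% higher, 0.163% lower). That call was lost in 3 of the other settings and in 18 of 21 fits that left out 1 array. The median change was 0.13 for the core and -0.10 for the cap. From 6 to 12 h to 24 to 72 h no member was called (2.29% of all genes, 0.862% higher), and 4 had an unadjusted p under 0.05. All 10 core genes had a negative change, with a median of -0.13, and Psma7 at -0.30 had the smallest adjusted p, 0.0994.

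Alpha genes reached their highest single-time differences at different times: Psma4 (0.57) and Psma5 (0.50) at 6 h, Psma2 (0.60) and Psma6 (0.53) at 10 h, Psma7 (0.64) at 12 h and Psma1 (0.59) at 24 h. Most single times rest on 1 control array, so these are values without calls. The alpha genes were positive at 10 to 12 of the 12 times after 0 h and the cap ATPases at 0 to 3. The beta ring genes of the list were positive at 3 to 12, with Psmb1 and Psmb2 at 12, and the other cap genes at 2 to 9. Among the other cap genes 13 of 13 were positive at 2 h and 2 of 13 at 4 h. The cap counts moved with the replicate arrays used. At 8 h, 0 cap ATPases and 0 other cap genes were positive, but 3 of 6 and 7 of 13 with replicate 1 arrays alone. At 36 h these counts were 0 and 1 with all arrays, and 0 and 2 with replicate 1 alone. Psmc5 was lowest at 36 h (-0.36) and Psmd11 at 8 h (-0.44).

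The untreated cells also changed with time. In control arrays at 24 to 72 h all 29 members were lower than in control arrays at 1 to 12 h, while 46.8% of all genes were. The median was -0.19 for the core (range -0.25 to -0.05), -0.18 for the cap (-0.35 to -0.03) and 0.01 for all genes. Psma1, Psma2 and Psma7, called higher with cytokines at 24 to 72 h, changed by -0.20, -0.18 and -0.20 in these control arrays. Their late differences are thus over controls that were themselves lower than before. Of the members 1 was called, with 1.2% of all genes called (0.808% lower), and 23 had an unadjusted p under 0.05, against 15.1% of all genes.

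The called gene was Psmd9, an assembly chaperone of the cap's base. Its control signals were 8.05 (24 h), 8.12 (36 h), 7.95 (48 h), 7.95 (60 h) and 8.15 (72 h), against 8.33 to 8.50 over the 8 control arrays at 1 to 12 h. No later array reached an earlier one, as in 2.06% of all genes and in 6 of the 29 members, the others being Psma5, Psma7, Psmb3, Psmd3 and Psmd7. Psmd9 fell by 0.35 (SE 0.08, limma adjusted p = 0.0359), and leaving out the control array at 4, 48, 60 or 72 h raised the adjusted p to between 0.0617 and 0.0886. Psmd11 (-0.33, adjusted p = 0.0672), Psmd12 (-0.25, 0.0674) and Psmd3 (-0.32, 0.0751) came next, and Psmd5 (-0.03) and Psmb2 (-0.05) moved least. With replicate number as a block, 8 members were called, all of the cap. The share of all genes called under that setting is not given here, so this count describes the setting only. The times compared differ also in hours of culture, which cannot be told apart here from any handling shared by the late arrays.

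**Figure D5:**
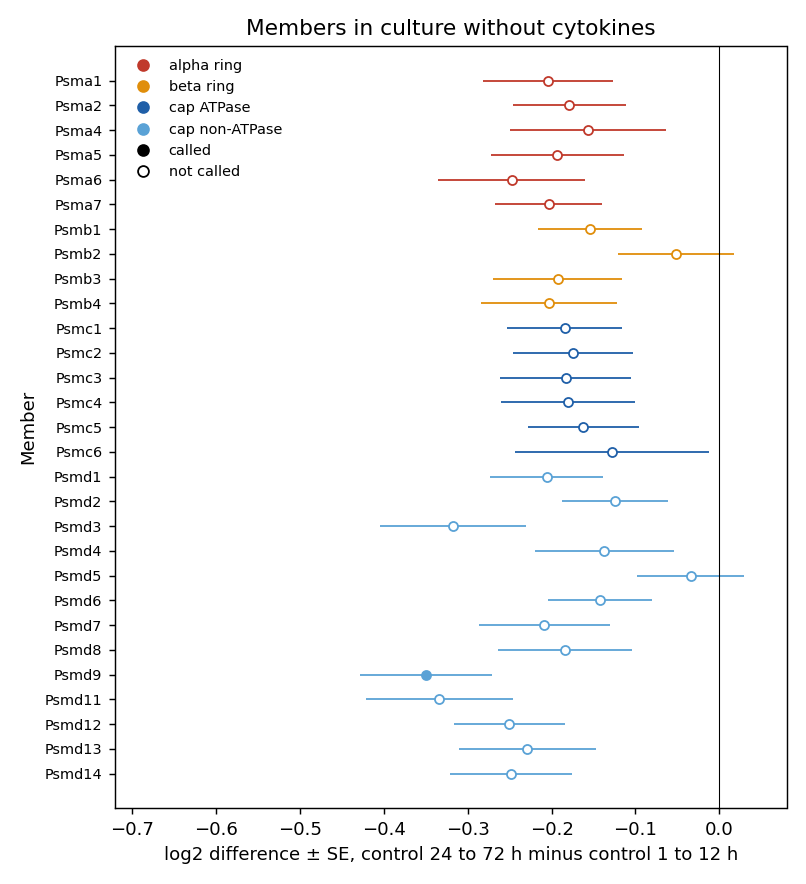
Log2 difference ± SE of each member, control arrays at 24 to 72 h minus control arrays at 1 to 12 h. All 29 members lie below 0, and Psmd9 (-0.35) is the filled point that passed the test.

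The members were set beside the rest of the pathway. The constitutive catalytic genes Psmb5, Psmb6 and Psmb7, which carry the protease sites, had 0 of 3 called by limma in any window. At 24 to 72 h 2 of them had an unadjusted p under 0.05, and 0 before. At 6 to 12 h they differed by -0.09, 0.28 and -0.12. Of all genes 1.49%, 9.05% and 8.73% were called at 1 to 4, 6 to 12 and 24 to 72 h. An unadjusted p under 0.05 was found for 9.17%, 19.6% and 20.4% of all genes. At these shares a count of 0 in so short a list says little. Of the inducible subunit list 4 of 5 genes were measured, and all 4 rose at 6 to 12 h and at 24 to 72 h. Psmb9, an inducible catalytic subunit gene, had cytokine signals of 10.07, 10.92 and 11.11 at 6 to 12 h, against control signals from 6.42 to 6.57, and rose by 4.30 (SE 0.24, limma adjusted p = 3.15e-11). Psmb8 rose by 3.97, Psmb10 by 2.56 and Psme1, a subunit gene of the alternative cap PA28, by 1.75.

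At 1 to 4 h Psmb9 (1.95) and Psmb8 (1.34) were called, but not in every alternative. Psmb8 was not called without the control array at 4 h (0.66, limma adjusted p = 0.588), with replicate 1 arrays only (0.579) or with the additive model (0.453), and Psmb9 was not with replicate 1 arrays only (1.79, limma adjusted p = 0.0897). At 24 to 72 h Psmb9 was higher by 3.70, Psmb8 by 3.11, Psmb10 by 2.10 and Psme1 by 1.65. Other cap proteins and regulators had 0 of 6 called in any window, and 0 at an unadjusted p under 0.05. Assembly chaperones had 0 of 4 called and 2 at an unadjusted p under 0.05 at 6 to 12 h and again at 24 to 72 h. The shares of all genes with such a p were 19.6% and 20.4%. Beside the shares of all genes, the counts of 0 in both lists say little. Among the chaperone genes Pomp, which assists core assembly, was at 0.32 at 6 to 12 h (limma adjusted p = 0.0581). Nfe2l1, the gene of a transcription factor that maintains proteasome genes, had cytokine signals of 9.35, 9.77 and 10.02 at 6 to 12 h, against 9.23, 9.57, 9.47 and 9.28 in controls, with overlap. It rose by 0.38 (SE 0.10, limma adjusted p = 0.0204), and was not called without the control array at 8 h (0.0578) or 12 h (0.185) or with replicate 1 only (0.151).

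Late in the course the related factor gene Nfe2l2 rose by 0.37 (limma adjusted p = 0.048), and that call was lost in 13 of 25 alternatives. Of 7 measured ubiquitin and p97 genes 1 was called at 24 to 72 h, where 8.73% of all genes were, so the count says little about the list. The called gene was Nploc4, a p97 cofactor gene, which fell by 0.24 (limma adjusted p = 0.00839). Its cytokine signals ran from 10.16 to 10.34 and its control signals from 10.46 to 10.55. Every cytokine array lay below every control array, as in 2.17% of all genes.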

How the data were processed

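The deposited table holds 1 log2 signal per probe set and array, used as deposited, with the log2 scale inferred from the range of the values. How the authors corrected, summarised and normalized the signals is not given in the sources used here. Of 19239 probe sets 16592 carried a symbol in the platform annotation; 16453 gene numbers were found in the RefSeq GRCr8 table, 3326 symbols were updated, and the brighter probe set stood for each of 5 repeated symbols. Values were fitted with limma 3.58.1 in R 4.3.3, with 1 coefficient for each of 26 treatment and time groups (residual df 14). Windows are means of the single-time differences, and Benjamini-Hochberg adjustment ran over all 16587 symbols. The number of arrays limits the precision, and nothing says that replicates came from separate cultures, so p-values measure the spread between arrays, which may be technical.

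The rule for the members uses gene names only, but it, the lists and the windows were chosen with earlier results of these data known. Values by array were given for the 3 core and 3 cap members with the smallest p in each window and for the member nearest 0 at 24 to 72 h in core and cap; list genes were named where called. Alternatives were a replicate block, replicate 1 only, an additive model, quantile normalization, the dimmest genes left out, trend and robust moderation, array weights and each array left out. The replicate numbers were checked as pairs: replicate 2 minus replicate 1 correlated between -0.17 and 0.43 over 91 pairs of groups (median 0.21, 68 over 0.1). Many groups thus deviated alike, but not every pair did and no label says what a number shares, so the block was kept as an alternative.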

Additional observations from a re-analysis of the deposited data

Results flagged for a closer look

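Psma7 differed more from control at 6 to 12 h than at 1 to 4 h, by 0.41 on the log2 scale (limma adjusted p = 0.0478). The test was of that difference itself, and its call was kept in 10 alternatives and lost in 21. The control array at 8 h had a median core signal of 10.56, the highest of the 4 control arrays at 6 to 12 h and apart from the other 3. There were 14 tests of this kind, of core and cap medians in groups that partly share arrays, and chance marks about 1 in 20.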

How the results depend on the processing

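Of the counts and medians that answer a comparison, 467 values under other settings stayed near the main fit and 37 moved. A count stayed near if it was equal or, with neither 0, within 1.5 times the main count. A median stayed near if it moved by less than the spread between replicates (0.065 for the core, 0.11 for the cap). Direction was not part of this rule: leaving out 1 array, the cap median at 0 h ran from -0.05 to 0.13. The cap spread also exceeds the size of the cap medians at 6 to 12 h (-0.07) and 24 to 72 h (-0.09). With a replicate block, 8 members were called lower in late control arrays (1 in the main fit), and the counts at 6 to 12 h (7) and 24 to 72 h (5) stayed within 1.5 times the main 6 and 4. Late control calls were 6 with replicate 1 only, 3 with the additive model, 0 with quantile normalization, and 4 each without the dimmest genes and with trend and robust moderation. Shares of all genes called under these other settings are not given here, so the counts are not read as results about the members. The early count was 1 without the 0 h arrays, a setting chosen after seeing the data. For intermediate minus early it was 0 with replicate 1 only, with the additive model and without the 0 h arrays, and for late minus intermediate 1 with trend and robust moderation. Leaving out 1 array gave 0 to 1 calls at 0 h (core median 0.0084 to 0.11), 4 to 7 at 6 to 12 h, 2 to 5 at 24 to 72 h, 0 to 1 for intermediate minus early and 0 to 2 for the late control arrays. Near 0, late Psmb4 was 0.028 with the block and 0.026 with replicate 1 only, and late Psmd11 was -0.0039 with quantile normalization and, leaving out 1 array, -0.017 (without the control array at 48 h) to 0.048. Psmd3 at 24 to 72 h was called with the additive model (adjusted p = 0.0365). The cause was not tested in these cases. The comparison at 0 h with replicate 1 only could not be fitted. Most control times rest on 1 array, whose spread is taken from the other groups.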
